A study of Mus musculus with 4 samples.

Results

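Mouse chromosome 18 held 3912 of the 560228 regions obtained when the called ATAC-seq peaks of 4 libraries were merged wherever they overlapped by 1 bp or more (mm10 build). It was chosen by the low number of peaks called on it in earlier results of these data. Its density, its share of genes with a peak and its standing among chromosomes are therefore descriptions, with no test. The libraries came from mpkCCD cells, a cultured mouse line of the kidney's cortical collecting duct, all from clone 11 at passages 8 to 10. In 2 libraries the cells had 0.1 nM dDAVP for 30 minutes, and in the other 2 they had vehicle for the same time. In both groups the cells stood confluent on permeable supports in medium without serum or hormones, and 50000 of them went into each library. The labels do not say whether libraries of a group came from separate cultures, so p-values measure only the spread between these libraries, which may be technical.

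ATAC-seq uses the transposase Tn5, which cuts DNA where nucleosomes leave it exposed, so that pile-ups of cuts mark promoters and other regulatory elements. dDAVP (desmopressin) mimics vasopressin at the V2 receptor, which in principal cells of the collecting duct raises cAMP, activates protein kinase A and brings the water channel aquaporin-2 to the cell surface. Chromosome 18 carries genes of this pathway and of its surroundings, among them the cAMP-responsive repressor gene Crem, the glucocorticoid receptor gene Nr3c1, the urea transporter genes Slc14a1 and Slc14a2, and Nedd4l, the ubiquitin ligase that removes sodium channels from the membrane.

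The lists analysed here hold a start and an end for each peak and no height, score or depth, so a peak is either called or not, and its width is the only quantity it carries. The lists had 291454 and 205771 peaks in dDAVP replicates 1 and 2, against 393956 and 206972 in vehicle replicates 1 and 2, a range of 1.91 times. A more deeply sequenced library usually yields more called peaks, and the depth of these libraries is unknown. A gene was scored by peaks within 1 kb of either outermost end of its RefSeq model, called gene-end peaks below; 1 of these ends is the annotated start, and strand was not used. By that measure 7 of 11 principal cell genes anywhere in the genome had a gene-end peak in all 4 libraries (Aqp2, Elf3, Gata3, Fxyd4, Scnn1a, Scnn1g and Hsd11b2). None of 9 markers of leukocytes, endothelium, stroma or podocytes did, although 5 of those 9 had a gene-end peak in 1 to 3 libraries. The V2 receptor gene Avpr2 had one in dDAVP replicate 1 and vehicle replicate 2.

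Chromosome 18 had 43.2 merged regions per Mb over 90.6 Mb, which placed it between chromosome X with 24.8 per Mb and chromosome 4 with 66.0 per Mb. Chromosome 7 followed with 66.5 per Mb, and the densest chromosome, 19, had 489 per Mb. The order did not follow gene content. Chromosome 18 had 5.64 protein-coding genes per Mb, chromosome X had 5.65 and chromosome 12 had 5.66, yet chromosome 12 had 451 regions per Mb. Put per gene, there were 7.66 regions for each gene of chromosome 18 and 79.7 for each gene of chromosome 12. Whether the deposited lists are complete for chromosomes 18, X, 4 and 7 could not be told from the lists themselves. The median stretch between neighbouring regions was 8388 bp on chromosome 18, 12247 bp on X, 3942 bp on 4 and 988 bp on 12.

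**Figure D1:**
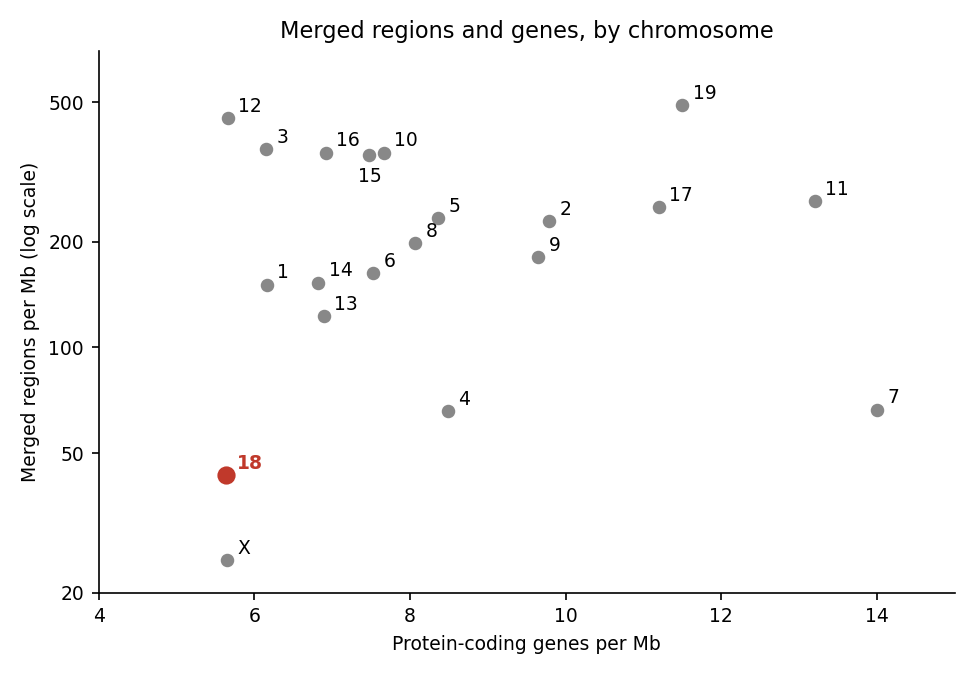
Protein-coding genes per Mb (x axis) and merged regions per Mb (y axis, log scale) for the 19 autosomes and X, 1 point per chromosome. Chromosome 18 (red), X and 12 have nearly the same gene density, at 43.2, 24.8 and 451 regions per Mb.

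A larger share of regions was common to all libraries on chromosome 18 and the other sparse chromosomes. Of its 3912 regions, 1028 (26.3%) had a peak in all 4 libraries, against 15.7% on all other chromosomes, and 1854 (47.4%) had a peak in 1 library, against 53.2%. The share of all-library regions was 32.9% on X, 28.3% on 4 and 27.0% on 7, while the remaining ones ranged from 13.7% to 18.6%. The number of peaks also varied less between libraries. The longest list for chromosome 18 was 1.41 times the shortest, as against 1.09 on X, 1.44 on 4, 1.51 on 7 and 1.81 to 2.22 on the remaining chromosomes.

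Width increased with the number of libraries, which merging itself favours. A region spans all the peaks merged into it, and a wider peak is likelier to overlap one of another library. Regions seen in 1 library had a median width of 126 bp, those in 2 libraries 226 bp, those in 3 libraries 344 bp and those in all 4 libraries 735.5 bp. The median of the all-library regions was 771 bp on the other chromosomes. All-library regions of 1 kb or more numbered 345 on chromosome 18, a share of 33.6%, against 33.1% elsewhere. The single-library regions had a median of 153 bp on the other chromosomes pooled, with 121 bp on X, 137 bp on 4 and 136 bp on 7.

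Along the chromosome, windows with more genes mostly held more regions. In the 17 windows of 5 Mb that assembled sequence fills, from 5 to 90 Mb, the number of regions ran from 135 to 412 with a median of 199, and its Pearson correlation with the number of protein-coding genes was 0.818 (Spearman 0.665). For all-library regions the coefficients were 0.896 and 0.805. These are descriptions over 17 windows of 1 chromosome that share the same 4 libraries. The coefficients include the window from 35 to 40 Mb, the highest in both counts, and were not computed without it. The densest window, from 35 to 40 Mb, had 412 regions, 120 of them in all 4 libraries, and 119 genes, which include the protocadherin clusters. The next were 60 to 65 Mb, with 323 regions and 50 genes, and 80 to 85 Mb, with 288 regions and 27 genes. The sparsest were 25 to 30 Mb, with 135 regions and 3 genes, 40 to 45 Mb, with 145 regions and 33 genes, and 15 to 20 Mb, with 161 regions and 5 genes. The first peak lies 3.00 Mb from the start.

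The low density was spread over the chromosome. Each of the 87 full windows of 1 Mb beyond the first 3 Mb held an all-library region, and the number of regions per window ran from 16 to 122 with a median of 38. The median was 38.5 regions per window before 45 Mb and 36 after it. Counts per window in any pair of libraries had Pearson correlations of 0.884 to 0.959.

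**Figure D2:**
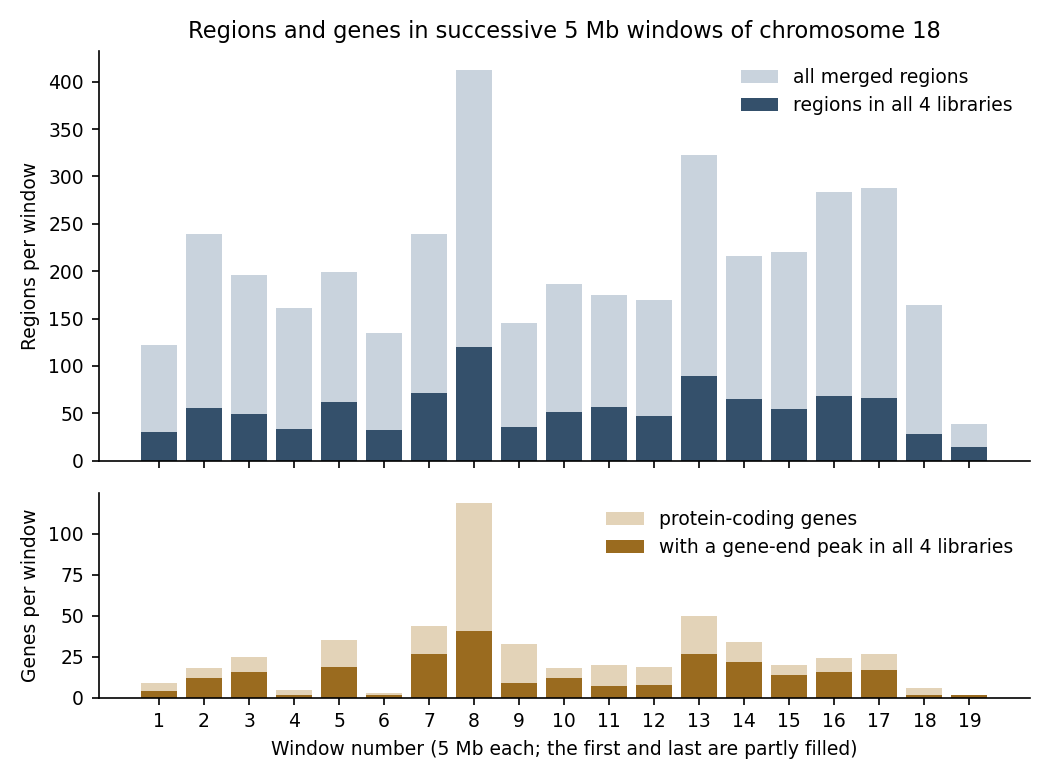
Number of merged regions (upper panel) and of protein-coding genes (lower panel) in successive 5 Mb windows of chromosome 18; dark bars count those called in all 4 libraries (for genes, at an end). Window 8 (35 to 40 Mb) has the most regions, 412, and the most genes, 119.

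Long stretches held no peak of any library. There were 158 stretches over 100 kb, which together made up 23.4 Mb, or 27.2% of the length between regions. The longest, 432 kb at chr18:16289068-16721525, runs into Cdh2, the gene of the adhesion protein N-cadherin. The next, 408 kb at chr18:27599514-28007531, has no protein-coding gene within 1845 kb. The third, 360.3 kb at chr18:18305881-18666190, lies 1295 kb from Dsc3. A stretch of 316 kb at chr18:85382072-85697894 lies 401 kb from Fbxo15, and one of 311 kb at chr18:71291999-71602848 lies in Dcc, the gene of a netrin receptor.

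Sorted by position, 247 of the 1028 all-library regions (24.0%) touched a gene-end window, against 16.9% elsewhere (19.7% on X, 25.7% on 4 and 31.2% on 7); 298 (29.0%) lay inside genes, against 37.0%, and 483 (47.0%) lay outside genes, against 46.1%. Those at gene ends had a median width of 1153 bp, against 600 bp inside genes and 628 bp outside them. Gene-end regions were also the ones most often shared by libraries: 64.8% of them were in all 4, compared with 21.4% of regions inside genes and 22.6% of those outside. On the other chromosomes pooled these shares were 46.0%, 13.4% and 14.1%. The sparse chromosomes were nearer to chromosome 18 or above it. The shares were 79.0%, 29.6% and 28.6% on X, 59.7%, 22.3% and 25.3% on 4, and 51.9%, 20.7% and 23.4% on 7. Far from genes there were still 199 all-library regions over 100 kb from a protein-coding gene. The farthest, at chr18:28151668-28152295 and within the long non-coding RNA gene Gm33860, was 2113 kb from Pik3c3 and had 530 and 548 bp of peak in dDAVP replicates 1 and 2, against 298 and 288 bp in vehicle replicates 1 and 2. The groups did not overlap there.

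Of the 511 protein-coding genes of chromosome 18, 259 (50.7%) kept a gene-end peak in all 4 libraries, against 65.3% of genes elsewhere. The share was 29.8% on X, 57.8% on 4 and 43.7% on 7. Another 79 genes of chromosome 18 had one in 1 to 3 libraries. None was seen in any library for 173 (33.9%), against 18.9% elsewhere, with 65.4% on X, 27.1% on 4 and 40.6% on 7. Of the 51 genes seen at an end in a single library, 41 were seen in vehicle replicate 1, whose list is the longest. Counting peaks over the whole gene and 1 kb either side, 372 genes (72.8%) had one in all 4 libraries, against 77.2% elsewhere. On X, 4 and 7 this share was 39.6%, 69.5% and 54.3%. The 173 genes without a gene-end peak differed in length. In 74 of them (42.8%, against 18.6% elsewhere) every library had a peak inside the gene, and their median length was 124 kb. Many of these 74 are overlapping Pcdha and Pcdhg models that share the same few peaks, so both values lean on those clusters. In 34 a peak lay inside in 1 to 3 libraries, and 65 genes, of median length 6.02 kb, had none anywhere. Genes open at an end in every library had a median length of 35.2 kb.

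Housekeeping genes kept their peaks. Of 31 genes that every cell uses, 29 (93.5%) had a gene-end peak in all 4 libraries, with a median width of 997 bp, against 964 bp over all 259 such genes of the chromosome. They include Rps14, a small-subunit ribosomal protein, with widths of 941 and 735 bp in dDAVP replicates 1 and 2, and 884 and 1153 bp in vehicle replicates 1 and 2. Hspa9, a mitochondrial chaperone, had 1173 and 1397 bp in the dDAVP libraries, and 1437 and 1154 bp in the vehicle libraries. At both genes the groups overlapped. The histone deacetylase gene Hdac3 had the widest mean of the list, 1455 ± 258 bp (SD, n = 4 libraries), with 1563 and 1747 bp in the dDAVP libraries, both above the 1150 and 1360 bp in the vehicle libraries. Over all 259 genes with a gene-end peak in every library, both dDAVP widths were above both vehicle widths in 55 (21.2%). Both were below in 21 (8.11%). The same shares were not computed for genes of the other chromosomes, so nothing particular to chromosome 18 can be read from them. For all-library regions of chromosome 18 the shares were 16.8% above and 12.9% below. The background over all 88231 regions was 12.9% above and 17.5% below. Neighbouring genes can share a peak, so counts of genes are not counts of separate peaks. Hars and Hars2, Ik and Ndufa2, and Atp5a1 and Haus1 each had identical widths in every library. The 2 exceptions, Reep5 and Dnajc18, had an all-library region inside the gene. In Reep5, whose product shapes the endoplasmic reticulum, it was 1567 bp wide and lay 1.03 kb from the nearer end, just outside the 1 kb window, with 1373 and 1567 bp of peak in the dDAVP libraries, and 1354 and 1467 bp in the vehicle libraries. In Dnajc18 it was 726 bp wide and 5.00 kb from the nearer end.

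Genes of cAMP, steroid and collecting duct function had peaks at an end in every library in 4 of 16 cases (25%), against 50.7% of all genes of the chromosome, and the other 12 had none there in any. In 10 of these 12 every library had a peak inside the gene, against 74 of the 173 genes of the chromosome without a gene-end peak (42.8%). Crem (chr18:3266354-3337773), whose inducible product ICER is a cAMP-responsive repressor, had gene-end peaks of 1302 and 1383 bp in dDAVP replicates 1 and 2, against 1393 and 1468 bp in vehicle replicates 1 and 2. Both dDAVP widths were below both vehicle widths. The widest all-library region inside the gene went the other way, with 546 and 1107 bp in the dDAVP libraries, and 452 and 502 bp in the vehicle libraries. Myo5b, a motor of recycling vesicles, had 889 and 1388 bp in the dDAVP libraries, and 798 and 833 bp in the vehicle libraries. Both dDAVP values were above both vehicle values, dDAVP replicate 2 standing apart. Inside Myo5b, 1.43 kb from its nearer end, the opposite held, with 675 and 668 bp in the dDAVP libraries, and 889 and 893 bp in the vehicle libraries. Mc5r, a melanocortin receptor, had narrow peaks of 307 and 106 bp in the dDAVP libraries, and 160 and 293 bp in the vehicle libraries.

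The gene-end window missed wide regions in long genes of this group. Nr3c1, at chr18:39410545-39519421, had a region of 2997 bp at chr18:39488930-39491926, 27.5 kb from the nearer end, and no gene-end peak. Its peak lengths were 2938 and 2955 bp in dDAVP replicates 1 and 2, against 2983 and 2991 bp in vehicle replicates 1 and 2. The 4 values lay close together, with both dDAVP values below both vehicle values. Nedd4l, a gene of 333 kb, had 7 all-library regions inside it. The widest, 2128 bp at chr18:64887093-64889220, lay 2.61 kb from the nearer end and had 1997 and 1808 bp in the dDAVP libraries, and 1985 and 2007 bp in the vehicle libraries. Regions of the same kind were 1588 bp wide in Ppp2r2b (a regulatory subunit of protein phosphatase 2A), 1456 bp in Mc2r (the ACTH receptor), 1094 bp in Camk4 and 716 bp in Camk2a (calmodulin-dependent kinases), 930 bp in Rab27b (a GTPase of secretory vesicles) and 734 bp in Pde6a (a phosphodiesterase of photoreceptors).

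The urea transporter genes, neighbours on the chromosome, had few and narrow peaks. Slc14a2, which encodes the vasopressin-regulated transporter UT-A, spans 451 kb, and its widest all-library region of 598 bp lay 173 kb from the nearer end. Peak lengths there were 184 and 97 bp in dDAVP replicates 1 and 2, against 598 and 72 bp in vehicle replicates 1 and 2, so vehicle replicate 1 set its width. In Slc14a1, which encodes UT-B, every library had a peak inside the gene, the widest of 108 and 128 bp in the dDAVP libraries, and 175 and 151 bp in the vehicle libraries, but no region was common to all 4. Aqp4, a water channel of the basolateral membrane, and Mc4r had no peak in any library over the gene and 1 kb either side.

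Signalling and growth genes were mostly open at an end. Of 20, 14 had a gene-end peak in all 4 libraries, 5 had one in 1 to 3 libraries and 1, Dcc, had none; the median width of the 14 was 1236 bp. Egr1 (chr18:34861207-34864956), an immediate-early transcription factor, had the widest mean gene-end peak of the chromosome, with 2159 and 2549 bp in dDAVP replicates 1 and 2, against 2064 and 2727 bp in vehicle replicates 1 and 2. The groups overlapped, and both replicates 2 were wider than both replicates 1. Hbegf, an EGF receptor ligand, had 936 and 983 bp in the dDAVP libraries, and 1022 and 1071 bp in the vehicle libraries, which were both above the dDAVP values.

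The 3 Smad genes of the chromosome, which carry and restrain TGF-beta signals, all had gene-end peaks in every library. Smad2, a receptor-activated member, had 1412 and 1502 bp in dDAVP replicates 1 and 2, against 1359 and 1374 bp in vehicle replicates 1 and 2, with both dDAVP widths above both vehicle widths. Smad7, the inhibitor, had 1480 and 1478 bp in the dDAVP libraries, both below the 1481 and 1529 bp in the vehicle libraries, by as little as 1 bp. At Smad4, the shared partner, the groups overlapped, with 1214 and 1208 bp in the dDAVP libraries, and 1211 and 1236 bp in the vehicle libraries. Smad4 also held one of the widest regions of the chromosome inside the gene, 3909 bp at chr18:73689483-73693391, with 3233 and 3430 bp of peak in the dDAVP libraries, and 3535 and 3396 bp in the vehicle libraries. Apc, the Wnt pathway scaffold, averaged 1150.5 ± 17.5 bp (SD, n = 4 libraries), and Rock1, the kinase of the actin skeleton, 1254 ± 44.2 bp. Rock1 had 1208 and 1224 bp in the dDAVP libraries, both below the 1288 and 1295 bp in the vehicle libraries. Pdgfrb, the receptor of pericytes and fibroblasts, had 72 and 0 bp in the dDAVP libraries, and 72 and 0 bp in the vehicle libraries. Csf1r of macrophages, Fgf1 and the collagen cross-linking enzyme gene Lox had one only in vehicle replicate 1, of 202, 244 and 303 bp. Bambi, a decoy receptor of the TGF-beta family, had 349 and 0 bp in the dDAVP libraries, and 625 and 130 bp in the vehicle libraries.

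Transcription and chromatin genes were all called at an end in at least 1 library. Of 23, 15 had a peak there in every library, at a median width of 1156 bp, and 8 in 1 to 3 libraries. Lmnb1, the nuclear lamina protein lamin B1, had 1882 and 2029 bp in dDAVP replicates 1 and 2, against 1854 and 1833 bp in vehicle replicates 1 and 2, a small difference without overlap. Wac averaged 1613 ± 22.3 bp and Tshz1 1156 ± 9.9 bp (SD, n = 4 libraries each), among the least variable of the list. Setbp1 had 1604 and 681 bp in the dDAVP libraries, and 696 and 724 bp in the vehicle libraries, so dDAVP replicate 1 stood apart. Among those seen in part of the libraries, Gata6 had 95 and 0 bp in the dDAVP libraries, and 406 and 0 bp in the vehicle libraries, and Zfp532 had 583 and 0 bp in the dDAVP libraries, and 836 and 0 bp in the vehicle libraries. Gata6, Zfp521, Sall3 and Zfp532 were called in both replicates 1 and in neither replicate 2, while Onecut2 and Pou4f3 were called in vehicle replicate 1 alone, and Zeb1 in dDAVP replicate 1 alone with 80 bp. Zeb1, a repressor of epithelial genes, nevertheless had an inside region of 1428 bp in all libraries.

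Of 18 genes listed under other organs and cell types, not all of them confined to these, 4 had a gene-end peak in all 4 libraries. Another 5 had one in 1 to 3 libraries and 9 had none. The 4 were Slc12a2 (the sodium, potassium and chloride cotransporter NKCC1), Mbp (myelin basic protein), Sh3tc2 (a gene of Schwann cells) and Cd14 (a receptor for bacterial lipopolysaccharide on myeloid cells). Slc12a2 had 1739 and 1671 bp in dDAVP replicates 1 and 2, against 1714 and 1837 bp in vehicle replicates 1 and 2. Mbp had 1441 and 1899 bp in the dDAVP libraries, and 1469 and 1546 bp in the vehicle libraries. Cd14 was narrow and uneven, with 251 and 762 bp in the dDAVP libraries, and 325 and 94 bp in the vehicle libraries. Ttr (transthyretin), Spink1, Spink5, Galr1, Lrrtm2 and Cd226 had no peak in any library over the gene and 1 kb either side. Synpo, a gene of podocytes and neurons, had no gene-end peak but 7 all-library regions inside it, the widest of 1598 bp.

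**Figure D3:**
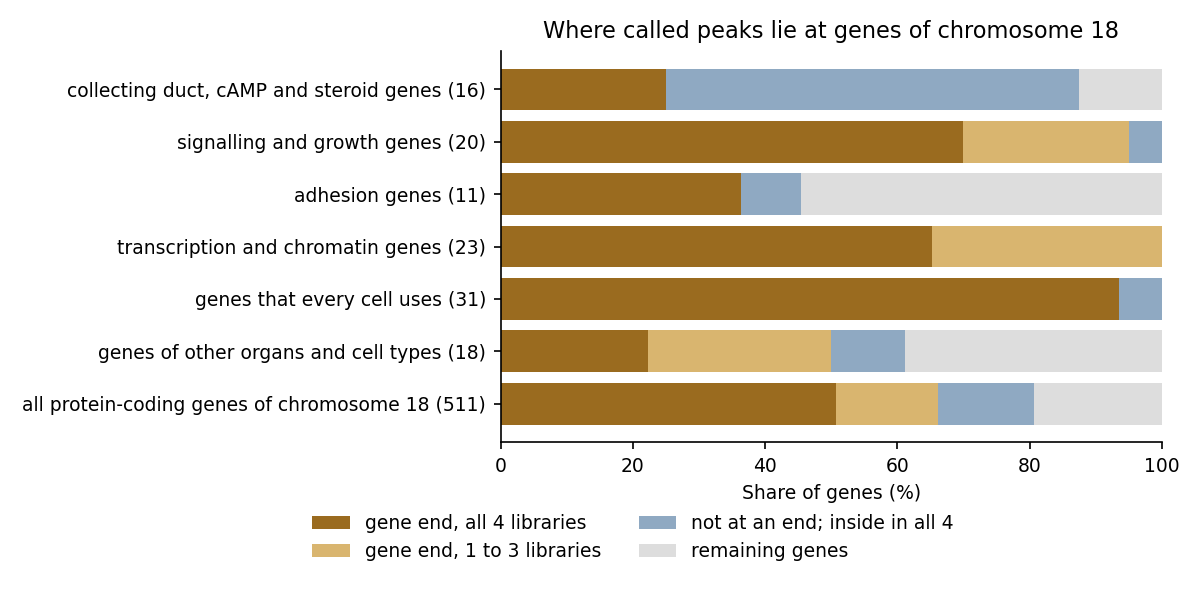
Share of genes (x axis, %) in 6 gene lists and in all 511 protein-coding genes of chromosome 18, by where peaks were called; the number of genes is in brackets. The bar of collecting duct, cAMP and steroid genes is mostly blue, since 10 of 16 genes have peaks inside the gene only, while 29 of 31 genes that every cell uses have a gene-end peak in all 4 libraries.

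Both large families of cell adhesion genes were largely without gene-end peaks, apart from single members. The desmosomal cadherins, which bind cells at desmosomes, lie in a row, and with 50 kb on either side their 9 genes cover 744 kb. That stretch held 26 regions, 9 of them in all 4 libraries. Dsc2 and Dsg2, the forms found in simple epithelia, were the 2 genes with a gene-end peak; the other 7, among them the epidermal Dsc1, Dsc3, Dsg1a, Dsg1b, Dsg1c and Dsg3, had none. Dsc2 had 918 and 959 bp in dDAVP replicates 1 and 2, against 888 and 958 bp in vehicle replicates 1 and 2. Dsg2 had 865 and 901 bp in the dDAVP libraries, and 867 and 956 bp in the vehicle libraries. Beyond Dsg2, in the long non-coding RNA gene Gm16090, lay 4 further all-library regions. The widest, 3029 bp at chr18:20626596-20629624, was 22.1 kb from Dsg2 and had 2791 and 1808 bp in the dDAVP libraries, and 2073 and 758 bp in the vehicle libraries. It was narrowest in vehicle replicate 2 and differed more between libraries than Dsg2 itself.

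Outside that row, Cdh2 had 1512 and 1478 bp in dDAVP replicates 1 and 2, against 1838 and 734 bp in vehicle replicates 1 and 2, so the vehicle libraries were the highest and the lowest. Lama3, a chain of the basement membrane protein laminin-332, had 607 and 167 bp in the dDAVP libraries, and 738 and 153 bp in the vehicle libraries, and both replicates 1 were wider than both replicates 2. The clustered protocadherins, adhesion proteins best known from neurons, are the largest family of the chromosome. Of 57 genes, 3 (5.26%) had a gene-end peak in all 4 libraries, 10 had one in 1 to 3 libraries and 44 had none, whereas 56.4% of the other 454 genes had one in all 4. The 3 belong to the Pcdhg cluster: Pcdhgb6, Pcdhgc3 and Pcdhgc4. Pcdhgb6 had only 110 and 81 bp in dDAVP replicates 1 and 2, against 72 and 95 bp in vehicle replicates 1 and 2. The narrowest peak of chromosome 18 was 72 bp in every list. Pcdhgc3 had 1292 and 759 bp in the dDAVP libraries, and 841 and 551 bp in the vehicle libraries. Pcdhgc4 had 482 and 423 bp in the dDAVP libraries, and 1643 and 1102 bp in the vehicle libraries, which did not overlap. The gene models of the Pcdha and Pcdhg clusters overlap and share their last exons, so a region inside one model is counted for many. By position there were 20 regions over the Pcdha cluster, 26 over Pcdhb and 17 over Pcdhg, of which 4, 5 and 4 were in all libraries.

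The genes with the widest gene-end peaks, ranked within each library, were Egr1, Ppargc1b, Ankhd1, Svil, Fzd8, Lmnb1, Mex3c, Slc12a2, Cxxc5 and Slc66a2. Ppargc1b, a coactivator of mitochondrial genes, had 2233 and 2386 bp in dDAVP replicates 1 and 2, against 2244 and 2225 bp in vehicle replicates 1 and 2. Ankhd1 averaged 2004 ± 36.7 bp and Fzd8, a Wnt receptor, 1922 ± 264 bp (SD, n = 4 libraries each). Svil, the actin-binding supervillin, had 1771 and 2689 bp in the dDAVP libraries, and 2695 and 1743 bp in the vehicle libraries, a split of the libraries that did not follow treatment.

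The widest regions were not all at genes. The widest of the chromosome, 5261 bp at chr18:3115162-3120422, lay near the start of the assembled sequence, 2.07 kb from the vomeronasal receptor gene Vmn1r238, and had 5232 and 4398 bp of peak in dDAVP replicates 1 and 2, against 4950 and 4586 bp in vehicle replicates 1 and 2. The second, 4425 bp at chr18:82166537-82170961, was 222 kb from Galr1 and had 3189 and 3563 bp in the dDAVP libraries, and 4278 and 4422 bp in the vehicle libraries. Both vehicle values were above both dDAVP values there. The next was 3969 bp at chr18:4195341-4199309 over the pseudogene Gm10557, followed by the region inside Smad4. The others among the 10 widest lay at the ends of Pcdh1 (3315 bp), Pik3c3 (3214 bp), Svil (2826 bp) and Egr1 (2727 bp), inside Nr3c1 and in Gm16090. At Pik3c3 only dDAVP replicate 2 had a gene-end peak (2359 bp). The peaks of the remaining libraries in that region did not reach the 1 kb window.

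**Figure D4:**
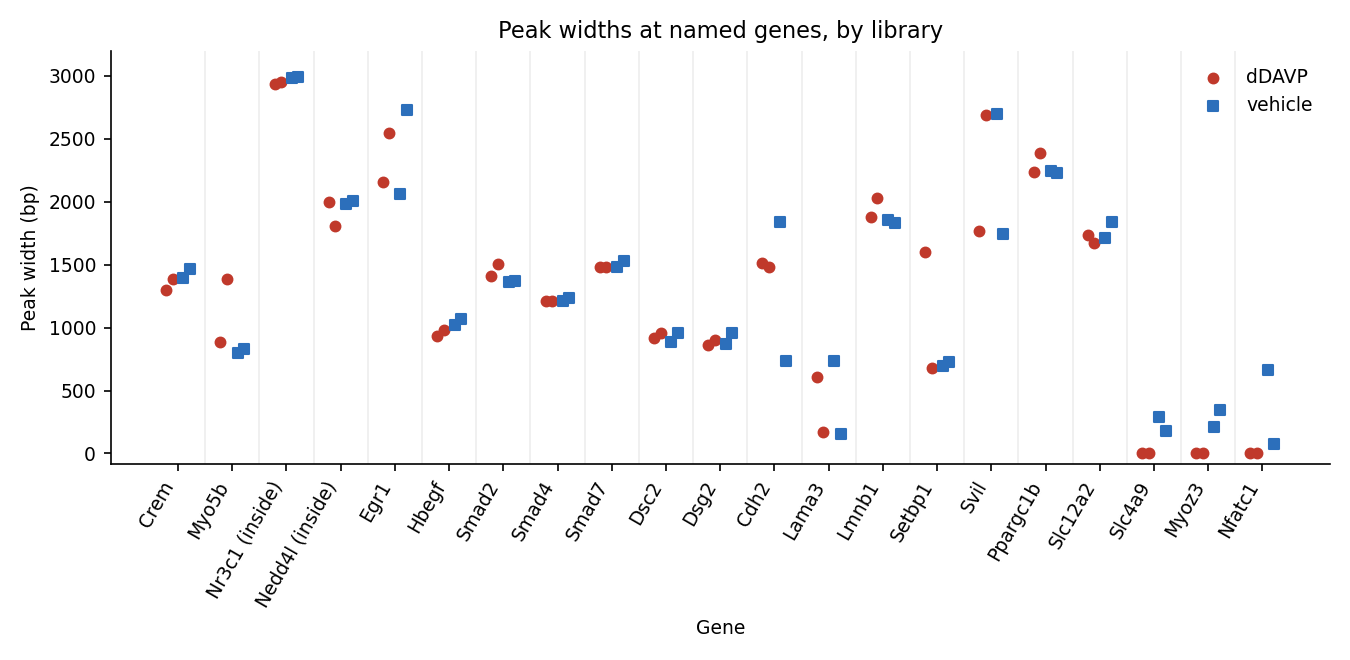
Width in bp (y axis) of the widest gene-end peak in each library for named genes (x axis), or of the peaks in the widest inside region for Nr3c1 and Nedd4l; circles are dDAVP libraries and squares vehicle libraries, replicate 1 left of replicate 2, and 0 means no peak. The libraries lie close together at Smad4 and Nr3c1 and far apart at Svil and Cdh2, and 3 genes at the right have 0 bp in both dDAVP libraries.

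Treatment did not separate the libraries in the number of peaks on the chromosome or in its share of all peaks. There were 2173 and 1940 peaks on chromosome 18 in dDAVP replicates 1 and 2, against 2668 and 1896 in vehicle replicates 1 and 2, which is 0.746% and 0.943% of each list in the dDAVP libraries, against 0.677% and 0.916% in the vehicle libraries. The groups overlapped, and the shorter lists of both replicates 2 had the higher shares. The share averaged 0.844 ± 0.139% with dDAVP and 0.797 ± 0.169% with vehicle (SD, n = 2 each), a ratio of 1.06 with an exact two-sided permutation p of 0.667. With 2 libraries against 2 no p below 1 in 3 is possible. Within replicate 1 the ratio was 1.10 and within replicate 2 it was 1.03. It turned to 0.936 without dDAVP replicate 2 and to 0.922 without vehicle replicate 1. With each list cut to the length of the shortest, the ratio was 1.05 (exact two-sided permutation p of 0.667).

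The number of genes with a gene-end peak was 284 and 271 in dDAVP replicates 1 and 2, against 325 and 273 in vehicle replicates 1 and 2. Vehicle replicate 1 was the highest, and the other 3 libraries lay close together. The means were 278 ± 9.19 with dDAVP and 299 ± 36.8 with vehicle (SD, n = 2 each), with a ratio of 0.928 and an exact two-sided permutation p of 0.667. Without vehicle replicate 1 the ratio was 1.02.

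**Figure D5:**
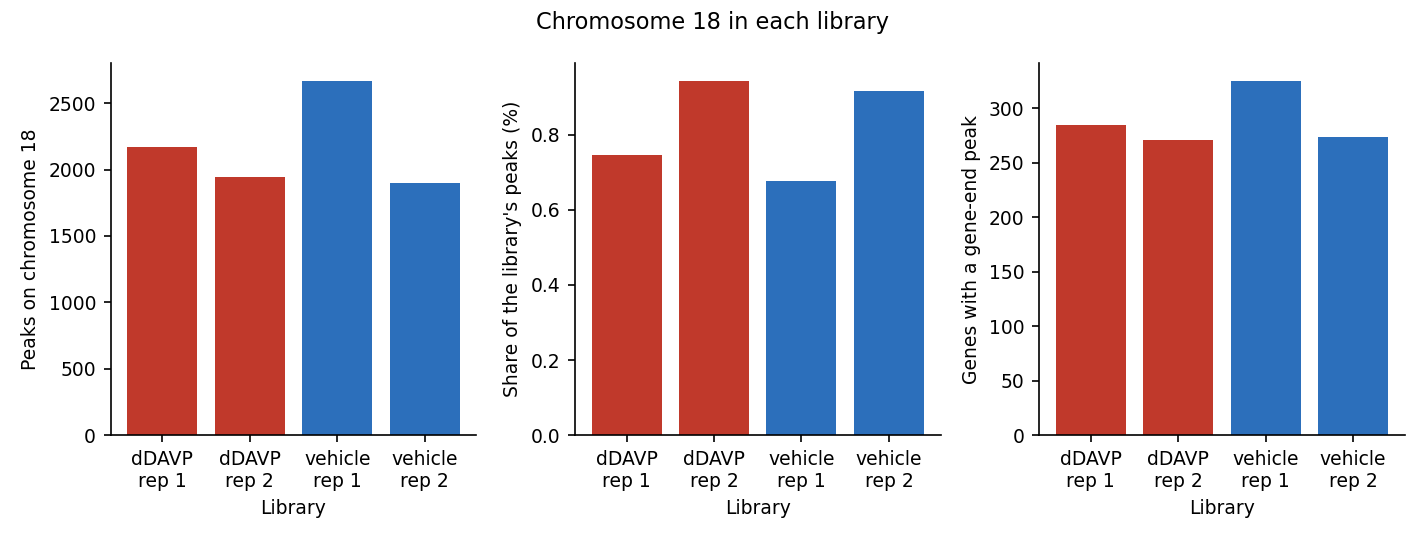
Number of peaks on chromosome 18, their share of the library's peaks (%) and number of its genes with a gene-end peak (y axes) for each library (x axis), dDAVP in red and vehicle in blue. Vehicle replicate 1 has the most peaks, 2668, and the lowest share, 0.677%.

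Few regions of chromosome 18 were called in both libraries of 1 treatment and in neither of the other. There were 72 with dDAVP alone (1.84%), where the background over all regions of the series was 1.61%, and 80 with vehicle alone (2.04%), where it was 3.35%. Regions seen in exactly 2 libraries were most often those of both replicates 1, with 209 (5.34%, against 8.79% over all regions), and next those of both replicates 2, with 109 (2.79%, against 1.19%). With the lists cut to equal length the order turned, to 60 with dDAVP alone and 28 with vehicle alone. For this setting and for those without 1 library, the share over all regions of the series was not computed. Whether the turn is particular to chromosome 18 is therefore unknown. The counts also rested on the libraries included. Regions called with dDAVP alone numbered 383 without dDAVP replicate 1, 499 without dDAVP replicate 2, 180 without vehicle replicate 1 and 164 without vehicle replicate 2. Regions called with vehicle alone numbered 197 without dDAVP replicate 1, 179 without dDAVP replicate 2, 347 without vehicle replicate 1 and 964 without vehicle replicate 2. Most were narrow, with medians of 201 bp for dDAVP alone and 225 bp for vehicle alone, and 3 and 9 of them reached 500 bp. The dDAVP regions lay at a gene end in 1 case, inside genes in 29 and outside genes in 42, against 7, 26 and 47 for vehicle. Of those reaching 500 bp, the widest were chosen for mention after their values were seen. With dDAVP it was 805 bp inside Jcad, with 127 and 805 bp of peak in dDAVP replicates 1 and 2. With vehicle it was 1105 bp at chr18:36507526-36508630 inside Hbegf, with 695 and 1105 bp in vehicle replicates 1 and 2, in a gene that all libraries called at an end.

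On chromosome 18, 0 genes were called at an end in the dDAVP libraries (both) and not in either vehicle library, where the background over all genes was 0.210%. In both vehicle libraries alone 3 of 511 genes (0.587%) had one, where the background was 0.864%. Slc4a9 (chr18:36528066-36556272), an anion transporter of intercalated cells, had 0 and 0 bp in dDAVP replicates 1 and 2, against 287 and 181 bp in vehicle replicates 1 and 2. Myoz3, a muscle gene, had 0 and 0 bp in the dDAVP libraries, and 211 and 349 bp in the vehicle libraries. Nfatc1, a calcium-regulated transcription factor, had 0 and 0 bp in the dDAVP libraries, and 660 and 72 bp in the vehicle libraries. All 4 libraries nevertheless had peaks inside Slc4a9 and Nfatc1; the widest all-library region in Nfatc1 had 1062 and 1083 bp in the dDAVP libraries, and 1288 and 1022 bp in the vehicle libraries.

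The widths of all-library regions did not differ by treatment past the threshold. With limma on quantile-normalized log2 widths over all 88231 all-library regions of the genome, 0 of the 1028 regions of chromosome 18 passed an adjusted p of 0.05, and the background was 0%. By the deposited widths, before that normalization, both dDAVP values were above both vehicle values in 173 of the 1028 regions (16.8%), where the background over all 88231 regions was 12.9%. Both were below in 133 (12.9%), where the background was 17.5%. At an unadjusted p under 0.05 there were 23 (2.24%), with a background of 5.28%. The median log2 difference, dDAVP over vehicle, was 0.09 on chromosome 18 and 0.04 over all regions, with 668 of the 1028 regions higher (65.0%) and 360 lower, against 54.1% higher over all regions. Without vehicle replicate 1 the median was -0.02. The median length of peak in these regions was 516.5 and 546 bp in dDAVP replicates 1 and 2, against 529 and 522 bp in vehicle replicates 1 and 2.

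The 4 regions with the smallest p lay outside genes, and none passed the adjustment, for which limma gave 0.870 as the smallest value. At chr18:33699882-33700820, 95.5 kb from Epb41l4a, there were 462 and 491 bp of peak in dDAVP replicates 1 and 2, against 104 and 114 bp in vehicle replicates 1 and 2, a log2 difference of 2.20 (SE 0.32). At chr18:74963114-74963702, 1.85 kb from the lipase gene Lipg, there were 359 and 589 bp in the dDAVP libraries, and 79 and 93 bp in the vehicle libraries. At chr18:61643507-61644136, 43.8 kb from Il17b, there were 621 and 592 bp in the dDAVP libraries, and 200 and 195 bp in the vehicle libraries. In the other direction, at chr18:82390849-82391321 and 1.18 kb from the galanin receptor gene Galr1, there were 90 and 84 bp in the dDAVP libraries, and 464 and 282 bp in the vehicle libraries, a log2 difference of -1.98 (SE 0.31). The groups did not overlap in any of these 4, which were picked for their small p.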

How the data were processed

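ATAC-seq peaks of 4 libraries were analysed. The authors deposited 1 list of peak positions per library (chromosome, start and end, with no header, score or depth). Per the submitters' processing notes, which give no versions or settings, cutadapt, Bowtie2, SAMtools, Picard, bedtools and MACS2 were used with mm10; no peak threshold or treatment of duplicate reads is given in the sources used here. Such a threshold makes the number of peaks depend on depth, which is unknown, so no interval that needs it is given.

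Groups and replicate numbers came from the sample titles. Peaks overlapping by 1 bp or more were merged, with touching peaks kept apart, and positions are given 1-based. Genes were the protein-coding entries of a RefSeq table for GRCm38.p6 (mm10), 511 on chromosome 18, with no strand or exons. Of the listed genes, Atp5f1a (listed there as Atp5a1) and Spink3 had no entry of their own on the chromosome. Exact two-sided permutation tests (scipy 1.17.1) compared values per library, and limma 3.58.1 (R 4.3.3) compared widths, on log2 summed peak widths, quantile normalized, with Benjamini-Hochberg adjustment over all regions at 0.05. The steps were tested on simulated data. The regions and gene lists were chosen with earlier results of these data known. Named genes are the members of 6 lists grouped by textbook function, genes with gene-end peaks in both libraries of 1 treatment alone, the 10 widest gene ends and 10 widest regions, the 5 longest stretches without a region, the 3 densest and 3 sparsest windows, and the 4 smallest p of the width test. Members of a list not named in the text are in its counts. An item that the rule takes is not reported here. Alternatives were wide peaks only, lists cut to equal length, other overlaps and windows, a replicate block, and leaving out each library.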

Additional observations from a re-analysis of the deposited data

How the results depend on the processing

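Of 51 alternative values, 34 kept their direction and stayed within the limits set for a change, 14 moved and 3 reversed. The ratio of shares, dDAVP over vehicle, was 1.06 and ranged from 0.922 to 1.25 when 1 library was left out; it reversed to 0.936 without dDAVP replicate 2 and to 0.922 without vehicle replicate 1. The ratio of gene counts, 0.928, ranged from 0.854 to 1.02, and 1.02 without vehicle replicate 1 was a reversal. With the replicate block the ratio of shares stayed at 1.06 (exact p = 0.5) and the width test called 0 regions. The deviations of same-numbered libraries from their group means had a correlation of 0.0983. With 2 libraries a group, each pair across groups gives this value or its negative, so it cannot decide whether the numbers pair the libraries. Of regions called in exactly 2 libraries, 209 were in both replicates 1 and 109 in both replicates 2. The pairs that differ in number and treatment had 70 and 85. The labels do not say what the numbers mark, and the main tests did not pair the libraries. Keeping peaks at least as wide as the library's median gave 29 regions called with dDAVP alone, 39 with vehicle alone and 20.1 regions per Mb. Cutting the lists to equal length gave 60 with dDAVP alone and 28 with vehicle alone. Requiring 50% reciprocal overlap gave 125 with dDAVP alone and 127 with vehicle alone. No background over all regions of the series was computed for the alternative counts of regions called with 1 treatment alone. Without 1 library the count ran from 164 to 499 with dDAVP alone and from 179 to 964 with vehicle alone, since leaving out a library removes 1 of the conditions: either 1 peak fewer is needed, or 1 library fewer has to lack one. The density ran from 33.8 to 40.7 regions per Mb without 1 library. Genes open at an end in every library, 259, numbered 241 to 282 over the alternatives, apart from 338 with a peak in any 1 library and 372 over the whole gene. The width test called 0 regions in each of 7 alternatives; where 1 library stood alone in its group, it was assumed to vary like the others. A window around the annotated start alone was not run, since strand was not used. Presence and width are all that these lists carry, so a change in signal within a called peak was not detectable here.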

Other observations

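Some genes outside the 6 lists also had their all-library regions beyond the 1 kb gene-end windows. These genes were chosen after their values were seen. Of the 173 genes without a gene-end peak, 69 had an all-library region inside the gene, and in 39 the widest was 1 kb or more. Both counts include genes of the 6 lists, such as Nr3c1 and Nedd4l. They also include many overlapping Pcdha and Pcdhg models that share the same few regions, so they are not counts of separate regions. No such count was made for other chromosomes. Ctdp1, a phosphatase of RNA polymerase II, had an all-library region of 1776 bp at 8.16 kb from the nearer end, with 1229 and 1346 bp in dDAVP replicates 1 and 2, against 1225 and 1770 bp in vehicle replicates 1 and 2. Ss18, a subunit of the BAF chromatin remodeller, had one of 1552 bp at 1.02 kb from the nearer end, just outside the 1 kb window. It had 1280 and 1552 bp in the dDAVP libraries, and 1262 and 1491 bp in the vehicle libraries. Chst9, a sulfotransferase gene of 308 kb, had one of 1614 bp at 28.5 kb from the nearer end. The 10 Spink genes, serine protease inhibitors, went the other way: Spink10 had a gene-end peak in every library, one it shared with its neighbour Fbxo38, with identical widths, the other 9 had none, and in 8 of these no library had a peak over the gene and 1 kb either side.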
